A study of Homo sapiens with 4 samples.

Results

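DNA replication is built up in steps, and the 49 genes described here cover those steps from origin to finished strand. In G1 the origin recognition complex, CDC6 and CDT1 load the MCM2 to MCM7 ring onto DNA, which is called licensing. In S phase CDC45 and the GINS proteins turn the loaded ring into an active helicase, and polymerases, the sliding clamp and a supply of deoxynucleotides carry the copying. Many of these genes are transcribed in late G1 and S phase under the control of E2F transcription factors, so that their RNA is abundant in dividing fibroblasts and scarce in resting ones.

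The genes were taken by symbol by a rule that names them and uses no measured value, although the rule was set with earlier results of these data known, as 49 of the 63651 rows of the table. Of the 50 rows that carried a member symbol, a second RFC2 row was listed at 0 in both columns, and the row with the higher mean was used. The libraries came from clonal lines of BJ-5ta, foreskin fibroblasts immortalised with telomerase, that carry a doxycycline-inducible FOXA2 transgene and grow in hygromycin B and puromycin. FOXA2 is a forkhead factor of endoderm and liver. Induced cells (2 samples) received 0.5 µg/ml doxycycline, and uninduced cells (2 samples) received none. All groups share the clonal transgenic background, and no sample given doxycycline without the transgene was analysed here, so that FOXA2 and the drug cannot be told apart. The labels also name an overnight treatment with mimosine, which halts cells in G1, without saying which cultures received it, and its part in the values below was not tested.

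The table holds 1 value per gene and group, in FPKM, which divides fragment numbers by transcript length and by the mapped total, with a deposited lower and upper bound. It gives none per sample, so that the differences below have no replicate check and carry no p-value, SD or n. The comparison asks which RNA levels differ after FOXA2 is switched on. FOXA2 itself was at 104 FPKM induced (interval 50.2 to 158) and 4.82 FPKM uninduced (0.526 to 9.12). All 9 fibroblast markers listed were kept, summing to 3040 FPKM induced and 4875 FPKM uninduced. Their differences lay in both directions, with 3 at least 2-fold lower (VIM, THY1 and S100A4) and 2 at least 2-fold higher (COL3A1 and DCN). Of all kept genes, 6.03% were at least 2-fold lower and 9.2% at least 2-fold higher. The induced and uninduced intervals of each marker overlapped, where 0.454% of kept genes were lower and 0.726% higher without overlap. Keratinocyte markers summed to 10.7 FPKM induced and 16.2 FPKM uninduced, nearly all of it KRT10, with KRT5 and KRT1 listed at 0. Immune markers summed to 3.46 FPKM induced and 1.37 FPKM uninduced, melanocyte markers to 1.59 FPKM induced and 0.801 FPKM uninduced, and endothelial markers to 0.058 FPKM induced and 0.0456 FPKM uninduced; the part of such cells in the values below was not tested. Rows at 1 FPKM or more in at least 1 column were kept, which left 14319. By value all 49 replication genes were above that in both columns (lowest 2.38 FPKM induced and 7.85 FPKM uninduced). The deposited lower bound was 0, however, for 22 of them induced and for 10 uninduced.

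Replication genes were lower as a group after induction. Their summed level was 998 FPKM induced and 2258 FPKM uninduced, a ratio of 0.44, and their share of all FPKM was 0.207% induced and 0.408% uninduced. Differences are given as log2(FPKM + 1), induced minus uninduced, which makes those of low genes look smaller. Here 48 of the 49 had a difference below 0, against 46.3% of all kept genes. The median difference was -1.15, beside 0.05 over all 14319 kept genes and -0.005 over the 9576 kept genes whose mean FPKM lay within that of the members. By rank, the median member stood at the 46.2 percentile of kept genes induced and at the 67.5 percentile uninduced, and 48 of 49 stood at a lower percentile induced. In bulk RNA, fewer cycling cells and less of these RNAs per cell cannot be told apart.

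Counts by fold use the log2(FPKM + 1) scale unless another pseudocount (the FPKM added before the log) is named. At least 2-fold lower on that scale were 32 of 49 members, where 6.03% of kept genes passed in that direction. At least 2-fold higher were 0 of 49, where 9.2% passed. GINS3, at 0.443 times its uninduced FPKM, is not counted as 2-fold lower on that scale. With 1.5-fold asked the count was 44 (15.3% of kept genes), and with 3-fold it was 9 (2.13%). The deposited intervals were wide, with the upper bound a median of 97.0% above the FPKM induced and 80.4% above it uninduced. None of the 49 had intervals that did not overlap, in either direction, where 0.454% of kept genes were called lower and 0.726% higher. By a looser criterion, which asks that 0 lie outside an interval of the difference (the distances from value to bound combined in quadrature), 4 members fell (MCM2, RRM1, TYMS and TK1), where 1.11% of kept genes were called lower, and 0 rose, where 1.26% were called higher. The other 45 are given by their values, since an overlap does not show that a gene stayed the same. The locus of 15 members overlaps that of at least 1 other kept gene in the table. These are ORC2, MCM2, MCM7, GINS2, GINS4, PRIM1, POLD3, RFC4, RFC5, FEN1, RPA1, RPA3, TYMS, CHAF1A and CHAF1B. Since the libraries do not keep strand, the reads of antisense partners at these loci cannot be told apart.

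**Figure D1:**
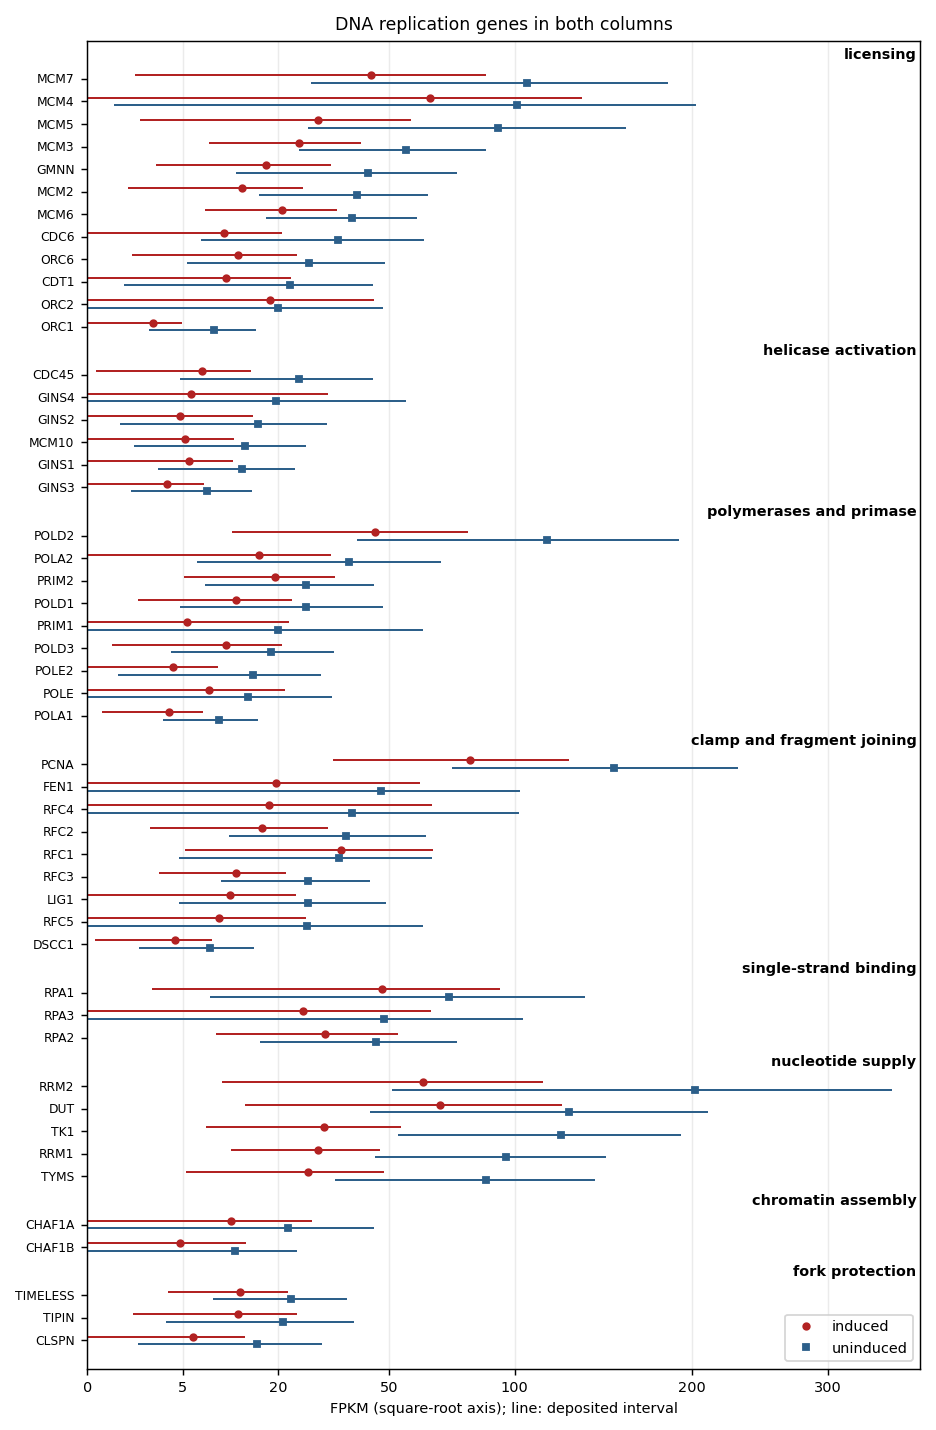
FPKM of each replication gene on a square-root axis, by role, with the induced value (red circle) above the uninduced value (blue square) and lines for the deposited intervals. Induced values lie left of uninduced ones in 48 of 49 genes, RFC1 being the exception, and the paired intervals overlap in all 49.

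**Figure D2:**
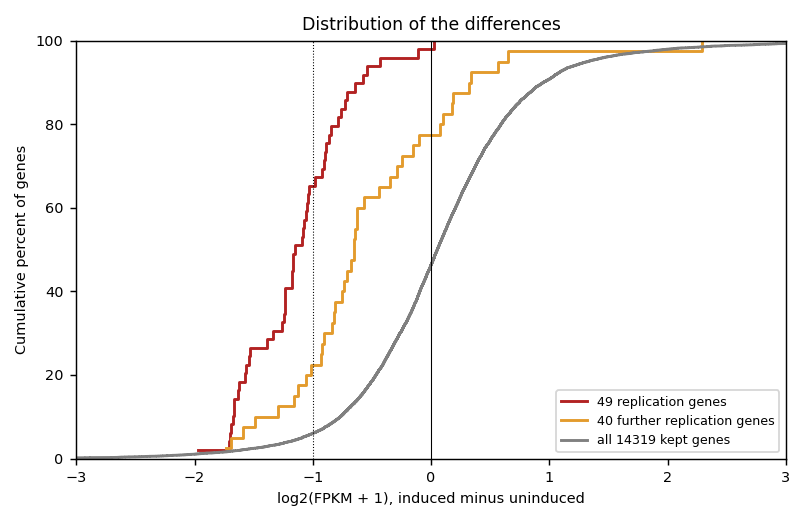
Cumulative percent of genes (y axis) by log2 difference, induced minus uninduced (x axis), for the 49 replication genes, 40 further replication genes and all 14319 kept genes; the dotted line marks 2-fold lower. The curve of the 49 members lies left of that of all kept genes, with medians of -1.15 and 0.05.

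Among the promoters of these genes, E2F-type letters were counted. Since many replication genes are under E2F control, as said above, the share of matches describes the set and not its response to induction. The E2F recognition sequence was searched as TTTCCCGC, TTTCGCGC, TTTGCCGC or TTTGGCGC on both strands, from 250 bases before to 50 bases after each annotated start in RefSeq (GRCh38.p14, whereas the expression table uses hg19). Entries matched 42 members, and 21 of these, or 50%, held a match, against 3.99% of all 27305 symbols with a promoter entry and 6.79% of the 9358 kept symbols with a promoter. No promoter entry was found for DSCC1, GINS4, MCM4, MCM5, POLD3, RPA2 and RPA3. A match is a description of letters and shows no binding. The following stretches run from 100 bases before to 30 bases after a start, on the strand of the gene, with matches in capitals. MCM2 (chr3:127598311-127598440, plus strand) and TYMS (chr18:657553-657682, plus) are shown because they fell by the looser criterion, MCM6 (chr2:135876414-135876543, minus) because its matches on both strands overlap as in MCM2, and CDC6 (chr17:40287779-40287908, plus), POLE2 (chr14:49688185-49688314, minus) and PCNA (chr20:5126593-5126722, minus) as members of the licensing, polymerase and clamp groups. TK1 (chr17:78187175-78187304, minus) had the largest difference and RFC1 (chr4:39366333-39366462, minus) the only one above 0, and neither held these letters. TK1 also fell by the looser criterion, as did RRM1, which is not shown and held no match either. CDC6, POLE2 and PCNA each hold a match, so that the stretches do not show how often members hold one.
MCM2: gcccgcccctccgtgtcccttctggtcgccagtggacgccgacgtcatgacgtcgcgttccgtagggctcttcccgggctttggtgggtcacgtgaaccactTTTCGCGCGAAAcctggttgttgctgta
MCM6: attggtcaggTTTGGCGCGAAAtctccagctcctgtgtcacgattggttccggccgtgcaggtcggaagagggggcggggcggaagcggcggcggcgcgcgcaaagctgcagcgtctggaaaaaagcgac
CDC6: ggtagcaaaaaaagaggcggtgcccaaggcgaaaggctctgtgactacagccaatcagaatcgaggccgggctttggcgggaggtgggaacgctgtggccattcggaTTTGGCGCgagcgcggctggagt
POLE2: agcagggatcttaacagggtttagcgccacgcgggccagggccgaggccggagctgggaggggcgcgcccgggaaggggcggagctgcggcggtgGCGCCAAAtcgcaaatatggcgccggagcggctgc
PCNA: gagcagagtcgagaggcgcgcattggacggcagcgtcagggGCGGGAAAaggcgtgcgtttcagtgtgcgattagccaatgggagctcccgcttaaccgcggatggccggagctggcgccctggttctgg
TYMS: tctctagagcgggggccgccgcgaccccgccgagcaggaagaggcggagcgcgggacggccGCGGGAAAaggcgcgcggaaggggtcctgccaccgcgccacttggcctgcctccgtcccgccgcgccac
TK1: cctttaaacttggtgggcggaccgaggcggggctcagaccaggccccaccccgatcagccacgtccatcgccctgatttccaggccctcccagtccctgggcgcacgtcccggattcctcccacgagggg
RFC1: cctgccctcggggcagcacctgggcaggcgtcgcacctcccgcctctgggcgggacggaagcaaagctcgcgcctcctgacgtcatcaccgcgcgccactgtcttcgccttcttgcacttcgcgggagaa

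Of 29 matches in 21 promoters, 23 (79.3%) began within 100 bases of the start, against 50.2% of the 1219 matches in all promoters and 48.8% of the places in the window where a match can begin. In the members 4 pairs overlapped on opposite strands, in MCM2, in TIPIN and at 2 places in MCM6. By role, a match was present in 7 of 10 licensing promoters, 3 of 5 of helicase activation, 4 of 8 of polymerases and primase, 3 of 8 of clamp and fragment joining, 2 of 5 of nucleotide supply and 2 of 3 of fork protection, but in 0 of 2 of chromatin assembly and 0 of 1 of single-strand binding. Members with a match and members without one had nearly the same differences. The median was -1.17 with a match (range -1.67 to -0.71, 15 of 21 at least 2-fold lower) and -1.17 without (range -1.97 to 0.02, 15 of 21). Only these exact letters were searched, so that members without a match may hold E2F sites of other letters.

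**Figure D3:**
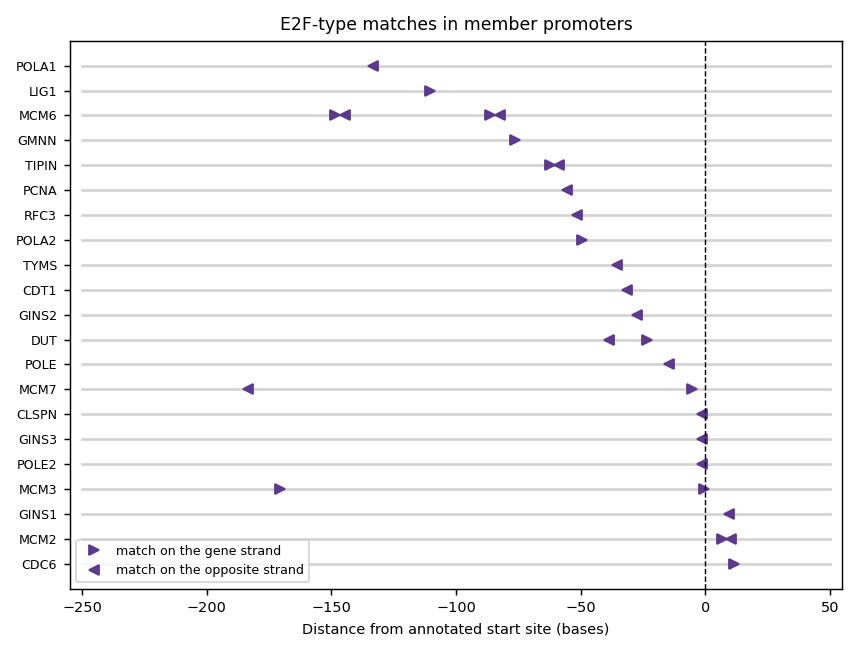
Position of each E2F-type match (x axis, bases from the annotated start, 250 before to 50 after) in the 21 member promoters that hold one (rows); arrowheads give the strand. Of the 29 matches, 23 begin within 100 bases of the start.

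Licensing genes had a median difference of -1.20, with 12 of 12 below 0 and 9 at least 2-fold lower. Among the 6 subunits of the MCM ring, which unwinds DNA ahead of the fork, MCM2 fell by the looser criterion, at 13.1 FPKM induced (interval 0.952 to 25.2) and 39.8 FPKM uninduced (16.3 to 63.2), a log2 difference of -1.53. The locus of MCM2 in the table overlaps 1 other kept gene. MCM5 was at 29.2 FPKM induced (1.56 to 56.9) and 92.6 FPKM uninduced (26.9 to 158), and MCM3 at 24.5 FPKM induced and 55.6 FPKM uninduced. The smallest difference in the ring was that of MCM4, at 64.4 FPKM induced (0 to 134) and 101 FPKM uninduced (0.411 to 202), or -0.64. MCM7, at 44.0 FPKM induced and 106 FPKM uninduced, was the highest of the 12 uninduced, and MCM6 was at 20.7 FPKM induced and 38.5 FPKM uninduced. Per length, the highest subunit exceeded the lowest by 4.92 times induced (MCM4 over MCM2) and by 2.75 times uninduced (MCM7 over MCM6), with overlapping intervals between neighbours in either order.

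Factors that load the ring were also lower by value. CDC6, the ATPase that brings the ring to origins, had a difference of -1.66, at 10.2 FPKM induced (0 to 20.5) and 34.4 FPKM uninduced (7.16 to 61.6). Its partner CDT1 was at 10.5 FPKM induced (0 to 22.4) and 22.5 FPKM uninduced (0.790 to 44.3). GMNN, or geminin, which inhibits CDT1 outside G1, was at 17.5 FPKM induced (2.70 to 32.3) and 43.3 FPKM uninduced (12.2 to 74.3), so that GMNN stood at 1.66 times the level of CDT1 induced and at 1.92 times uninduced.

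In the origin recognition complex, ORC1 was at 2.38 FPKM induced (0 to 4.80) and 8.80 FPKM uninduced (2.14 to 15.5), a difference of -1.54. ORC6 was at 12.5 FPKM induced (1.13 to 23.9) and 26.9 FPKM uninduced (5.58 to 48.2). ORC2, by contrast, was at 18.3 FPKM induced (0 to 44.8) and 19.9 FPKM uninduced (0 to 47.4), a difference of -0.11 that became 0.07 when both columns were scaled to the same FPKM sum. The locus of ORC2 overlaps 3 other kept genes.

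Helicase activation genes were low and had a median difference of -1.40, with 6 of 6 below 0 and 5 at least 2-fold lower. CDC45, the factor that joins MCM and GINS into the active helicase, was at 7.27 FPKM induced (0.0480 to 14.5) and 24.5 FPKM uninduced (4.80 to 44.3), the largest difference of the group at -1.63. Of the GINS subunits, GINS2 and GINS4 were close to CDC45 (-1.57 each), while GINS1 (-1.09) and GINS3 had smaller differences. GINS2 was at 4.73 FPKM induced (0 to 14.8) and 16.0 FPKM uninduced (0.637 to 31.3), and GINS4 at 5.92 FPKM induced (0 to 31.4) and 19.6 FPKM uninduced (0 to 55.4). GINS1 was at 5.63 FPKM induced and 13.1 FPKM uninduced, and GINS3, the smallest difference at -0.98, at 3.48 FPKM induced (0 to 7.31) and 7.85 FPKM uninduced (1.08 to 14.6). MCM10, a further activator at the origin, was at 5.21 FPKM induced (0 to 11.7) and 13.6 FPKM uninduced (1.24 to 26.0).

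Polymerase and primase genes had a median of -1.17, with 9 of 9 below 0 and 6 at least 2-fold lower. PRIM1, the catalytic subunit of primase, which lays the RNA primers, was at 5.42 FPKM induced (0 to 22.1) and 19.9 FPKM uninduced (0 to 61.2), or -1.71. Its partner PRIM2 had the smallest difference, -0.43, at 19.2 FPKM induced (5.24 to 33.2) and 26.3 FPKM uninduced (7.75 to 44.8). PRIM1 thus stood at 0.282 times the level of PRIM2 induced and at 0.759 times uninduced, although its locus overlaps 2 other kept genes. POLA1 and POLA2, the polymerase alpha subunits that extend the primers, had like differences (-1.17 each), POLA1 at 3.66 FPKM induced and 9.47 FPKM uninduced, and POLA2 at 16.1 FPKM induced and 37.4 FPKM uninduced.

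Of polymerase delta, which copies the lagging strand, the accessory subunit POLD2 was the highest gene of the group, at 45.2 FPKM induced (11.6 to 78.8) and 116 FPKM uninduced (40.2 to 191). The catalytic subunit POLD1 was at 12.1 FPKM induced and 26.2 FPKM uninduced, and POLD3 at 10.5 FPKM induced and 18.5 FPKM uninduced. Among leading-strand polymerase genes, the catalytic subunit POLE was at 8.18 FPKM induced (0 to 21.2) and 14.2 FPKM uninduced (0 to 32.5), a difference of -0.73. POLE2, its second subunit, was at 4.04 FPKM induced (0 to 9.25) and 15.1 FPKM uninduced (0.556 to 29.5), a difference of -1.67. For each of these genes the induced and uninduced intervals overlapped.

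Clamp, clamp loader and fragment joining genes had a median of -1.08, with 8 of 9 below 0 and 6 at least 2-fold lower. PCNA, the ring that holds polymerases on DNA, was the highest of all 49 induced, at 80.0 FPKM (33.3 to 127), against 152 FPKM uninduced (73.0 to 231), a difference of -0.92. RFC1, the large subunit of the clamp loader, was the only member above 0, at 35.1 FPKM induced (5.32 to 65.0) and 34.6 FPKM uninduced (4.73 to 64.5); its difference of 0.02 became -0.06 when both columns were scaled to the same median. The 4 small subunits were all at least 2-fold lower. RFC5 had the largest difference of the group, -1.39, at 9.46 FPKM induced (0 to 25.9) and 26.4 FPKM uninduced (0 to 61.4).

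RFC2 was at 16.8 FPKM induced and 36.7 FPKM uninduced, RFC3 at 12.1 FPKM induced and 26.7 FPKM uninduced, and RFC4 at 18.1 FPKM induced and 38.3 FPKM uninduced. RFC1 therefore stood at 2.09 times RFC2 induced and at 0.943 times RFC2 uninduced, with intervals of the 2 genes overlapping in each column. DSCC1, part of an alternative clamp loader, was at 4.18 FPKM induced (0.0402 to 8.32) and 8.30 FPKM uninduced (1.52 to 15.1). FEN1, the nuclease that trims Okazaki fragments, was at 19.5 FPKM induced (0 to 60.3) and 47.3 FPKM uninduced (0 to 102), and LIG1, the ligase that seals them, at 11.2 FPKM induced and 26.6 FPKM uninduced. The locus of FEN1 overlaps 4 other kept genes.

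Nucleotide supply genes showed the lowest median of the role groups, -1.69, with 5 of 5 below 0 and 4 at least 2-fold lower. Among the 40 further replication genes, the 9 nucleotide genes had a median of -0.65, with 6 below 0 and 3 above, beside -0.72 for origin firing. The supply genes include 3 of the 4 members that fell by the looser criterion. In other role groups PRIM1 (-1.71), POLE2 (-1.67) and CDC6 (-1.66) had like differences and did not pass it. TK1, thymidine kinase of S phase, fell, at 30.6 FPKM induced (7.82 to 53.4) and 123 FPKM uninduced (53.2 to 192), the largest difference of all 49 at -1.97. RRM1, the large subunit of ribonucleotide reductase, fell, at 29.0 FPKM induced (11.5 to 46.5) and 96.0 FPKM uninduced (45.5 to 147), or -1.69. TYMS, thymidylate synthase, fell, at 26.6 FPKM induced (5.45 to 47.8) and 87.2 FPKM uninduced (33.8 to 141), or -1.67, and its locus overlaps 2 other kept genes.

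RRM2, the small subunit of the reductase, was the highest of all 49 uninduced. It was at 61.6 FPKM induced (10.0 to 113) and 202 FPKM uninduced (51.2 to 353), or -1.70, with an interval of the difference that included 0. RRM2 stood at 2.12 times RRM1 induced and at 2.11 times uninduced. By value the ratio was nearly the same, although the wide intervals of both genes leave room for a different one. DUT, which removes dUTP, had the smallest difference of the group, -0.89, at 68.3 FPKM induced (13.8 to 123) and 127 FPKM uninduced (44.1 to 210). Summed, the 5 supply genes were at 216 FPKM induced and 636 FPKM uninduced, a ratio of 0.34, close to that of the 6 helicase activation genes (32.2 FPKM induced and 94.7 FPKM uninduced).

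**Figure D4:**
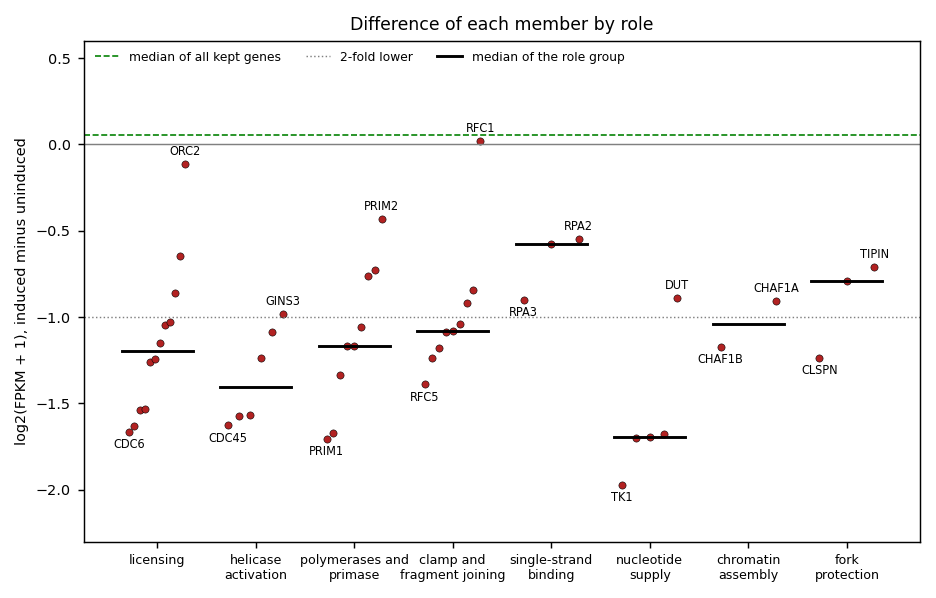
Log2(FPKM + 1) difference, induced minus uninduced (y axis), of each member (points) by role (x axis), with the median of each role group (black bars), the median of all kept genes (green dashes) and the 2-fold line (dots). Nucleotide supply has the lowest median, -1.69, and single-strand binding the highest, -0.58.

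Single-strand binding genes had the smallest differences, with a median of -0.58 and 0 of 3 at least 2-fold lower. RPA1, the large subunit of replication protein A, which coats unwound DNA, was at 47.7 FPKM induced (2.40 to 92.9) and 71.7 FPKM uninduced (8.35 to 135). RPA2 was at 30.9 FPKM induced (9.23 to 52.5) and 45.5 FPKM uninduced (16.6 to 74.5), and RPA3 at 25.5 FPKM induced (0 to 64.5) and 48.3 FPKM uninduced (0 to 103). The protein also serves DNA repair. No test between role groups was possible with 1 value per gene and group, so that their order is a description.

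Fork protection genes (median -0.79, 1 of 3 at least 2-fold lower) and chromatin assembly genes (median -1.04, 1 of 2) lay between. CLSPN, or claspin, which relays checkpoint signals at the fork, was at 6.10 FPKM induced (0 to 13.4) and 15.7 FPKM uninduced (1.49 to 30), or -1.24. Its partners had smaller differences, TIMELESS at 12.7 FPKM induced (3.66 to 21.8) and 22.7 FPKM uninduced (8.73 to 36.6), and TIPIN at 12.5 FPKM induced (1.20 to 23.8) and 21.1 FPKM uninduced (3.50 to 38.7). Chromatin assembly factor 1 places histones on new DNA. Its subunit CHAF1A was at 11.4 FPKM induced (0 to 27.5) and 22.2 FPKM uninduced (0 to 44.8), and CHAF1B at 4.73 FPKM induced (0 to 13.6) and 11.9 FPKM uninduced (0 to 23.8).

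A wider list of 40 other replication genes, all kept, had smaller differences, with a median of -0.65. Of these, 31 were below 0 (46.3% of kept genes), 9 at least 2-fold lower (6.03%) and 1 at least 2-fold higher (9.2%). Within the list, 2 genes fell by the looser criterion, where 1.11% of kept genes were called lower. By both criteria 1 rose, where 1.26% of kept genes were called higher by the looser criterion and 0.726% by non-overlap. DTYMK, the kinase that makes dTDP, fell, at 20.3 FPKM induced and 69.7 FPKM uninduced (-1.73), and TOP2A, the topoisomerase that untangles daughter strands, at 29.2 FPKM induced and 96.3 FPKM uninduced (-1.69). SAMHD1, a dNTP hydrolase that lowers the nucleotide pool, rose, at 70.1 FPKM induced (31.2 to 109) and 13.6 FPKM uninduced (4.59 to 22.5), a difference of 2.29. The locus of SAMHD1 overlaps 1 other kept gene.

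Next highest in that list were TK2, the mitochondrial thymidine kinase, at 25.3 FPKM induced and 15.7 FPKM uninduced (0.65), and RRM2B, the reductase subunit used outside S phase, at 31.3 FPKM induced and 20.9 FPKM uninduced (0.56). Both had overlapping intervals. Of the remaining origin recognition subunits, ORC3 was at 27.9 FPKM induced and 24.6 FPKM uninduced, ORC4 at 36.2 FPKM induced and 33.8 FPKM uninduced, and ORC5 at 16.8 FPKM induced and 21.7 FPKM uninduced. With ORC2 these 4 subunits had differences between -0.35 and 0.18, beside -1.54 for ORC1 and -1.05 for ORC6. The induced and uninduced intervals of each ORC gene overlapped, and those of ORC4 ran from 0 to 80.9 induced and from 0 to 72.7 uninduced. The locus of ORC4 overlaps 2 other kept genes. CDC7, the kinase that fires origins, was at 3.96 FPKM induced and 10.1 FPKM uninduced (-1.16), and its activator DBF4 at 19.5 FPKM induced and 31.9 FPKM uninduced (-0.68).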

How the data were processed

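RNA was extracted with columns and sequenced from TruSeq libraries that do not keep strand, per the labels' protocols, so that reads of overlapping antisense genes cannot be told apart. Per the submitters' processing notes, reads were aligned with TopHat against hg19. The quantifier, the filters, the depth and the level of the intervals were each not given in the sources used here. Deposited were FPKM values with lower and upper bounds, per the file headers, in 1 column for each group, and whether that column combines both samples of its group is not stated. A further 3 value columns of a condition that matches no sample here were not used. Columns were matched to groups by name.

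From these values log2(FPKM + 1) differences, interval overlaps and medians were computed with Python 3.11.15, pandas 2.3.3 and numpy 2.4.6 over all 14319 kept rows. A limma fit had been planned but needs a value per sample. The members, role groups, wider list, motifs and criteria were chosen with earlier results of these data known. Named were all members, FOXA2, and, of the wider list, the called genes and the 3 highest and 3 lowest, of which 1 is not reported here, and fibroblast markers past 2-fold; further ORC, CDC7 and DBF4 values were chosen after their values were seen. For 3 kept rows with malformed bounds no call was made.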

Additional observations from a re-analysis of the deposited data

How the results depend on the processing

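The median difference of the 49 members ranged from -1.23 to -0.89 over the alternatives, and was lowest for nucleotide supply and highest for single-strand binding under each of the 8 that changed values, filter or row choice. At least 2-fold lower were 19 members with a pseudocount of 5 (3.34% of kept genes) and 21 with both columns scaled to the same FPKM sum (4.26%), and 9 were at least 3-fold lower (2.13%). With the same FPKM sum, the median over the kept genes was 0.23 (0.05 as deposited), and the members lay at -1.19 relative to it (-1.21 as deposited). With both columns scaled to the same median of kept genes, the intervals of 2 members, RRM1 and TK1, did not overlap (0.532% of kept genes lower). On the values as deposited, 4 members passed by the looser criterion in place of non-overlap (1.11%). Of 392 recomputed member values, 1 moved by over 1.5-fold, ORC1 (-0.90 with a pseudocount of 5). The lowest licensing gene was CDC6 as deposited, but ORC1 with a pseudocount of 0.1 (-1.84) and after quantile normalization (-1.76), and MCM5 with a pseudocount of 5 (-1.51). Without the 15 members whose locus overlaps another kept gene, a choice made after seeing the data, 22 of 34 were at least 2-fold lower and the median was -1.09. No paired analysis was possible because no column belongs to a single sample, and alternatives that leave out 1 replicate could not be run either.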

Other observations

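Further motifs were counted in the same promoter windows. The CCAAT box (CCAAT, both strands), bound by NF-Y, was present in 27 of 42 member promoters, or 64.3%, against 39.7% of all symbols and 43.9% of kept symbols. The element bound in late cell cycle genes (CHR, searched as TTTGAA or TTCGAA) was present in 3 of 42, or 7.14%, against 19.5% of all symbols and 15.8% of kept symbols. A forkhead motif (TGTTTAC or TGTTTGC) was present in 3 of 42, or 7.14%, against 8.68% of all symbols and 7.18% of kept symbols.

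Across the 49 members, levels induced and uninduced followed each other (Pearson's r of log2 levels 0.93, Spearman's rho 0.93), while the log2 difference had almost no relation to the mean level (r 0.04, rho 0.05). Both are descriptions across genes of 2 columns, and genes are not independent replicates.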
